A study of Oryza sativa with 36 samples.

Results

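The genes described here ranked highest by a ratio of group means, leaves of rice plants regenerated from callus over leaves of seed-grown plants. They were chosen from deposited FPKM values (fragments per kilobase of gene, scaled to library depth) of 18 RNA-seq libraries, averaged over the 2 libraries of each group. A gene was kept if its lowest mean among the 8 regenerated groups was at least 1 FPKM, which left 17134 of 55986 genes. The kept genes were ranked by that lowest mean divided by the Seedling mean plus 0.1 FPKM, and the 150 with the highest ratio are the members.

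All plants were japonica rice, TNG67, raised in a greenhouse to tillering before leaves were taken. Of the 9 groups, 8 are regenerated: PB, AMT+Ab, AMT+Hb, AgTi, AgBi, Ag, Callus+AM and Callus. Calli had received various sets of transformation steps, and the Callus group is taken here as regenerated without treatment. The remaining group, Seedling, was grown from seed. No source used here expands these abbreviations, which are kept as labels. The growth protocol does not name the groups it calls regenerated, and taking all but Seedling as regenerated is an inference from the names. The series states 2 biological replicates per group but not whether each is 1 plant or a pool, nor whether plants of a group share a callus line, so p-values measure only the spread between these libraries.

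Callus is a mass of dividing, largely undifferentiated cells that forms when plant tissue is cultured with hormones, and whole plants can be regrown from it. Plants that have been through culture can differ from seed-grown plants, and from each other, in DNA sequence, DNA methylation and gene expression, which is known as somaclonal variation. Transformation of rice usually passes through callus, so every transformed plant carries the history of culture as well as that of the treatment.

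The files pair no identifier with a gene name, and none of the 150 members could be matched to the RefSeq gene table, so members are given by identifier and chromosome and no function is assigned. Library totals were 26609812 to 33222427 counts in 14 libraries and 41582054 to 52643973 in the 4 of Callus and Seedling, so the Seedling libraries were among the deeper ones. The leaf label and sampling time could not be checked with named marker genes. In these bulk leaf samples, fewer cells of a type and less RNA per cell cannot be told apart.

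The ratios of the members ran from 184.2 to 5.527 with a median of 9.38, and 71 members had a ratio of at least 10. Because every value of the regenerated groups against Seedling entered the choice, these values describe the set and carry no test. Most members were low in seed-grown leaves: 116 had a Seedling mean under 1 FPKM, and 8 were listed at 0 in both Seedling libraries. Their lowest regenerated mean was modest as well, with a median of 4.61 FPKM, and 34 members lay under 2 FPKM while 5 reached at least 100 FPKM. Per library, the median member stood between 6.63 and 25.3 FPKM in the 16 regenerated libraries, against 0.488 and 0.230 FPKM in Seedling replicates 1 and 2.

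**Figure D1:**
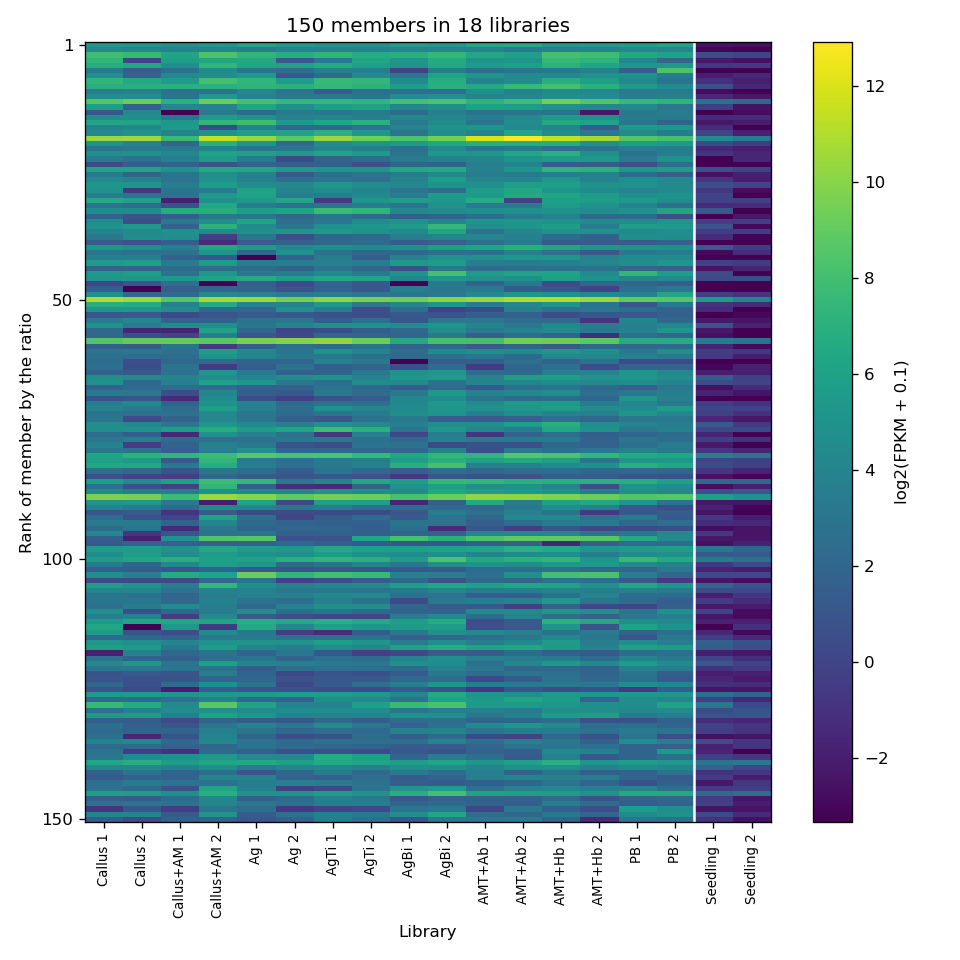
Level of each of the 150 members (down the page, ranked by the ratio) in each of the 18 libraries (across), as log2(FPKM + 0.1). The 2 Seedling columns right of the white line are dark for nearly every member, and single dark cells within the 16 regenerated columns mark libraries in which a member was near Seedling level.

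LOC_Os03g02470 on chromosome 3 had the highest ratio, 184.2. It stood at 42.99 and 39.71 FPKM in Callus, 28.82 and 39.82 in Callus+AM, 77.83 and 49.96 in Ag, 32.87 and 29.54 in AgTi, 55.75 and 39.94 in AgBi, 79.72 and 97.88 in AMT+Ab, 43.24 and 50.29 in AMT+Hb and 52.46 and 75.62 in PB, against 0.0747 and 0.0642 in Seedling. All 16 regenerated libraries lay far above both Seedling libraries, which held 3 counts each. Among regenerated groups the gene was lowest in AgTi and highest in AMT+Ab, and its edgeR adjusted p in the joint test over the 8 groups described below was 0.00973.

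LOC_Os11g13800 on chromosome 11 came second with a ratio of 120.9 and was the steadiest member, with a standard deviation of 0.256 on the log2(FPKM + 0.1) scale over the 16 regenerated libraries. Its FPKM values were 19.68 and 18.43 in Callus, 15.23 and 19.16 in Callus+AM, 11.72 and 16.01 in Ag, 15.48 and 15.03 in AgTi, 16.39 and 18.57 in AgBi, 15.31 and 10.6 in AMT+Ab, 13.58 and 15.73 in AMT+Hb and 19.46 and 18.42 in PB, against 0.0143 and 0 in Seedling. The Seedling libraries held 1 and 0 counts of it. No other member varied so little among regenerated libraries. The next steadiest were LOC_Os06g15430 on chromosome 6, with a standard deviation of 0.401 and 1.132 to 3.111 FPKM in regenerated plants against 0 and 0.0278 in Seedling, and LOC_Os03g59225 on chromosome 3, with 0.408 and 7.152 to 17.07 FPKM against 1.227 and 1.086.

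The next ranks varied more. LOC_Os03g55670 on chromosome 3 ranged over the regenerated libraries from 60.98 FPKM in AMT+Ab replicate 2 to 337.0 in Callus+AM replicate 2, with a median of 136.4, against 1.224 and 0.9156 in Seedling. LOC_Os03g61150 on chromosome 3 ranged from 25.67 FPKM in Callus+AM replicate 1 to 167.9 in Callus+AM replicate 2, with a median of 69.84, against 0.4991 and 0.5679 in Seedling. LOC_Os03g14654, also on chromosome 3, ranked 4 by its group means but was not high in every library. It held 160.9 FPKM in Callus replicate 1 and 0.9307 in replicate 2, and 92.82 in Ag replicate 1 and 2.253 in replicate 2, against 0.1122 and 0.0691 in Seedling.

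The members with the highest floor were LOC_Os11g44810, LOC_Os05g09580, LOC_Os05g28740, LOC_Os05g14240 and LOC_Os09g26620. LOC_Os11g44810 on chromosome 11 had a lowest group mean of 447.6 FPKM in PB and a highest of 1811 in Callus, against 49.55 and 17.06 FPKM in the Seedling libraries. LOC_Os05g28740 on chromosome 5 reached 4018 and 7712 FPKM in AMT+Ab but 404.9 and 283.9 in PB, against 20.5 and 10.24 in Seedling. All 5 of these genes had their lowest group mean in PB, between 105.7 FPKM for LOC_Os09g26620 and 447.6 for LOC_Os11g44810. LOC_Os05g14240, also on chromosome 5, ranged from 133.1 FPKM in Callus+AM replicate 1 to 693.3 in AMT+Hb replicate 1, against 6.676 and 4.553 in Seedling. LOC_Os05g09580 on chromosome 5 was at 219.9 to 1392 FPKM in regenerated plants against 59.64 and 30.12 in Seedling. Its length implied by counts divided by FPKM, which is not an annotated gene length, was very short. It was 0.0451 of the median over genes with many counts in every library, so its FPKM is high for its 604 to 3725 counts.

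At the lower end, the members ranked just inside were LOC_Os03g22510, LOC_Os02g09810 and LOC_Os01g61610, with ratios of 5.574, 5.562 and 5.527. Just outside lay LOC_Os10g36848, LOC_Os06g40090 and LOC_Os03g43410 with 5.501, 5.494 and 5.480. There was no gap at rank 150, so the set is the top of a continuous ranking.

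Of the 150 members, 142 were higher in all 16 regenerated libraries than in both Seedling libraries, a pattern that 5.91% of the 42551 genes with at least 1 count showed. Another 6 members were above both Seedling libraries in 15 of 16 libraries and 2 in 14 of 16. Of these 8 members, 6 were listed at 0 in at least 1 regenerated library. LOC_Os02g53240 on chromosome 2, for example, stood at 85.32 FPKM in Callus replicate 1 and was listed at 0 in Callus replicate 2, against 0 and 0.3677 in Seedling.

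In an edgeR quasi-likelihood fit over all 26374 genes that passed the filter on low counts, 148 of the 150 members were tested. The other 2, LOC_Os06g15320 and LOC_Os09g15365, had at most 6 and 15 counts in any library and owe their FPKM to few reads. Per group, 132 to 145 of the 148 were called higher than Seedling at adjusted p below 0.05, where 9.3% (Callus) to 19.7% (PB) of all genes tested were, and 117 were called in all 8 groups against 2.45% of all genes. The rule used this contrast and the 8 comparisons share the Seedling libraries, so nothing is read from these counts. Leaving out a Seedling library lowered the 117 to 74 (without replicate 1) and 52 (without replicate 2).

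The rule did not rank on how far libraries of the same group lay apart, though it is not independent of it. This spread was wide among the members. In Callus+AM, 105 of 150 members (70.0%) were over 2-fold apart between the libraries, on the FPKM + 0.1 scale, where 19.5% of all kept genes were. The shares were 47.3% against 17.4% of kept genes in AgBi, 44.7% against 14.2% in Ag and 41.3% against 6.98% in AMT+Hb. In PB, Callus, AMT+Ab and AgTi they lay between 24.0% and 30.0%, against 3.23% to 5.05% of kept genes, and in Seedling at 34.7% against 9.27%. The Seedling shares are not matched for level, since the rule chose members low in Seedling, with a median of 25 counts over both libraries. In a comparison added after the data were seen, among the 48 members whose lowest group mean was at least 10 FPKM, 60.4% were still over 2-fold apart in Callus+AM, against 15.0% of kept genes of that level. The minimum and the ratio act on group means, so they let a gene through when 1 of its 2 libraries is high. The wider spread of the members is therefore described only, and the part of the rule in it was not tested.

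**Figure D2:**
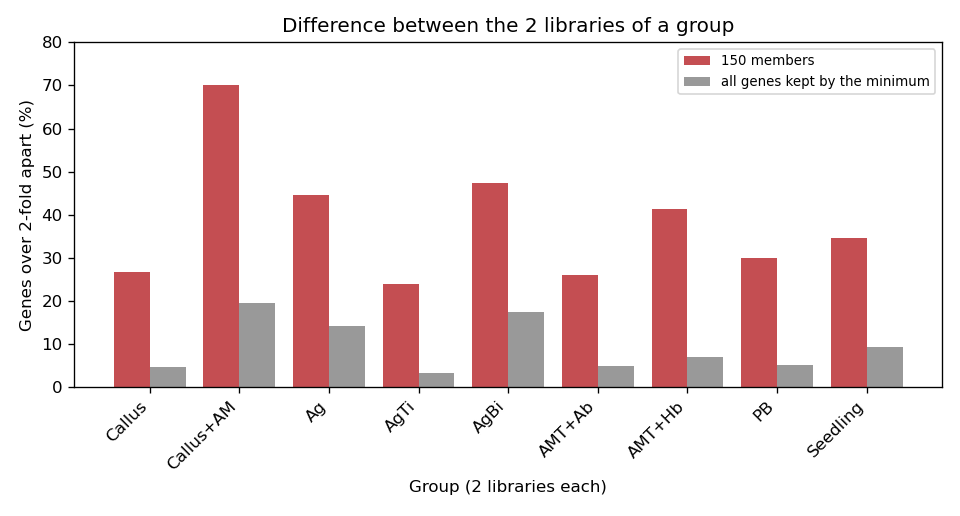
Share of genes, in percent, that were over 2-fold apart between the 2 libraries of each group, for the 150 members (red) and all 17134 kept genes (grey). The members' share was above that of the kept genes in all 9 groups, from 24.0% against 3.23% in AgTi to 70.0% against 19.5% in Callus+AM.

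Larger gaps were also common. In at least 1 regenerated group, 52 members (34.7%) had libraries over 10-fold apart, against 2.84% of kept genes, and 33 of the members had such a gap in Callus+AM. The widest spread was that of LOC_Os11g42550 on chromosome 11. It held 419.2 FPKM in Ag replicate 1 and 1.627 in replicate 2, 1.66 and 76.59 in AgTi, 29.82 and 356.9 in Callus+AM, 2.903 and 0.1721 in Callus, 273.9 and 128.6 in AgBi, 321.6 and 490.0 in AMT+Ab, 501.5 and 394.1 in AMT+Hb and 96.84 and 22.8 in PB, against 0.1037 and 0.0958 in Seedling. The Ag libraries were thus near opposite ends of its range, the AgTi libraries were far apart in its lower part, and both libraries of AgBi, AMT+Ab and AMT+Hb were high. LOC_Os02g53240 and LOC_Os03g18779 on chromosome 3 followed, with standard deviations of 2.97 and 2.83 on the log2(FPKM + 0.1) scale. LOC_Os03g18779 stood at 64.36 FPKM in Ag replicate 1 and 1.025 in replicate 2, and at 93.34 in AMT+Ab replicate 1 and 11.16 in replicate 2, against 0.1013 and 0.0936 in Seedling.

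In several groups, though not in PB, most members were higher in the same library. Callus+AM replicate 2 exceeded replicate 1 in 127 of 150 members (84.7%), AMT+Hb replicate 1 exceeded replicate 2 in 125 (83.3%), and AgBi replicate 2 exceeded replicate 1 in 121 (80.7%), where 50.3%, 44.6% and 52.3% of kept genes did. The share was 72.7% against 43.8% of kept genes in Ag, 68% against 58% in AgTi, 67.3% against 49% in AMT+Ab, 59.3% against 46.2% in Callus and 55.3% against 55.6% in PB. In Seedling, replicate 1 exceeded replicate 2 in 69.3% of members, against 48% of kept genes. The median member deviated from its own mean over the 16 libraries by 0.825 in Callus+AM replicate 2 and by -0.768 in Callus+AM replicate 1, on the log2(FPKM + 0.1) scale. The same deviation was 0.689 in AMT+Hb replicate 1 and -0.563 in Ag replicate 2. The median over all kept genes stayed between -0.0377 and 0.0746 in these libraries. Callus+AM replicate 1 was the lowest library for 39 members and replicate 2 the highest for 38, and 11 members had both. Between single members the profiles were only loosely alike, with a median correlation of 0.151 over 11175 pairs, which share the same 16 libraries.

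**Figure D3:**
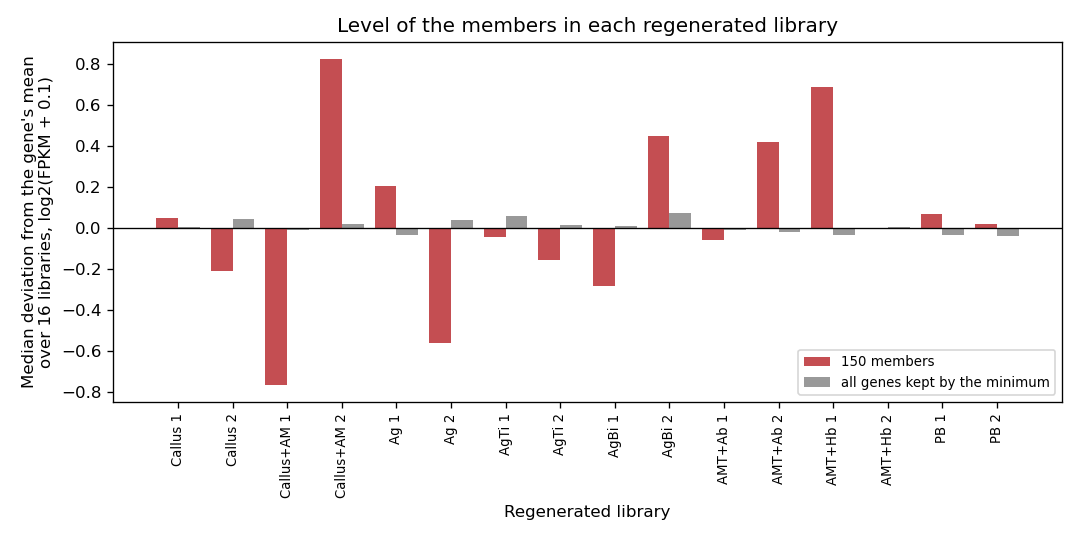
Median deviation of the genes from their own mean over the 16 regenerated libraries, on the log2(FPKM + 0.1) scale, for the 150 members (red) and all kept genes (grey). The members swing between -0.768 in Callus+AM replicate 1 and 0.825 in Callus+AM replicate 2, while the kept genes stay near 0.

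By group mean, the lowest regenerated level fell in PB for 28 members, AgTi for 27, Callus for 26, Ag for 25, AMT+Ab for 19, AgBi for 12, AMT+Hb for 9 and Callus+AM for 4. Against the kept genes, this share was above in AgTi (18% against 8.98%) and Ag (16.7% against 8.3%), and close in Callus (17.3% against 15.4%). It was below in AMT+Hb (6% against 14.5%), AMT+Ab (12.7% against 17.1%) and PB (18.7% against 21%). In Callus+AM (2.67% against 4.94%) and AgBi (8% against 9.79%) it was below as well. The highest fell most often in AMT+Hb (29 members) and AgBi (27 members). Against the kept genes, the share with the highest level was above in AMT+Hb (19.3% against 10.3%). It was also above in Callus+AM (18 of the 150 members, against 4.66% of kept genes). It was close in AgBi (18% against 17.5%) and AgTi (12.7% against 11.2%), and below in Callus, Ag, AMT+Ab and PB. The highest group mean was a median of 4.96 times the lowest, against 2.66 times over all kept genes. In 33 members it was at least 10 times the lowest (22.0%, against 4.83% of kept genes), and in 9 members it was under 2 times.

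Whether the members also differed between the regenerated groups was tested in the same edgeR fit. In a joint test over the 8 regenerated groups, added after the data were seen, 36 of 148 members (24.3%) differed at adjusted p below 0.05, where 49.5% of all genes tested did. The next 150 genes of the ranking gave 47 (31.3%). So most members were not called different between regenerated groups, although their group means lay further apart than those of the kept genes. Members were ranked on their lowest group mean and had to reach 1 FPKM in all 8 groups. The genes tested did not have to, and the part of this rule in the lower share was not tested. The members also had the wider spread between libraries of the same group, given above. Its part in the low number of calls was not tested. A call that is missing does not show that the groups were alike. In simulated data for AgBi against Ag, 29 of 50 genes changed 8-fold were recovered, 12 of 50 changed 4-fold and 0 of 50 changed 2-fold. The changed genes were drawn from all 26374 and were far fewer than the 25.3% called in the real comparison. These rates therefore do not give the share of changed members that the test would find.

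**Figure D4:**
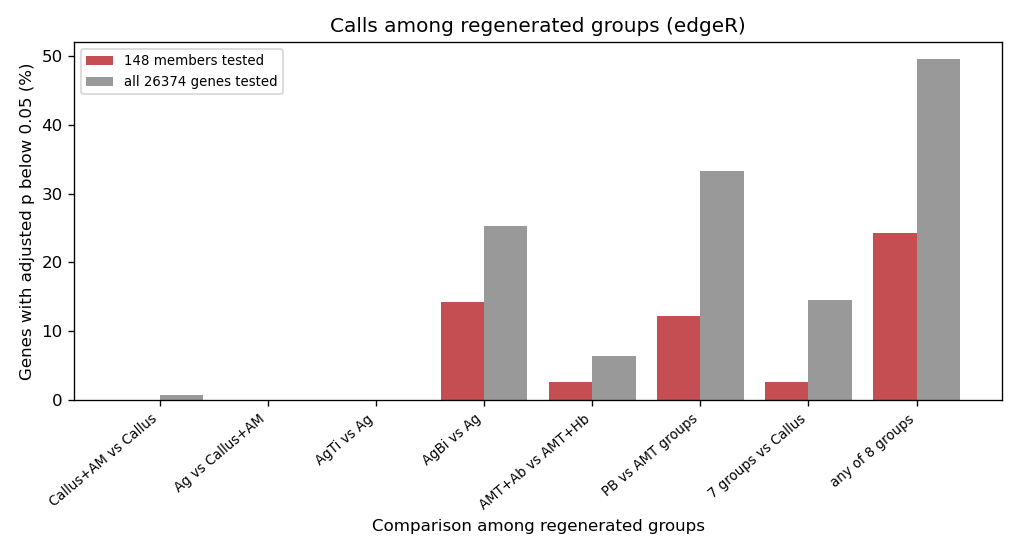
Share of genes with an edgeR adjusted p below 0.05, in percent, in 7 comparisons among regenerated groups and in the joint test over all 8, for the 148 members tested (red) and all 26374 genes tested (grey). No member was called in the 3 comparisons at the left, where 0.792%, 0% and 0% of all genes were. The members' share was below that of all genes in each of the others. Unlike the members, the genes tested did not have to reach a mean of 1 FPKM in every regenerated group.

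No member was called in Callus+AM against Callus, Ag against Callus+AM or AgTi against Ag, where 0.792% (0.406% higher, 0.387% lower), 0% and 0% of all genes were called. At an unadjusted edgeR p below 0.05 there were 15, 15 and 6 members. No share over all genes was taken at that level, so nothing is read from them. DESeq2 called 8, 1 and 0 members, where it called 2682, 266 and 57 of all genes. With limma there were 1, 0 and 0 members, where 242, 0 and 0 of all genes were called. The median log2 fold change of the members was 0.165, -0.422 and -0.0419, against 0.0601, -0.0664 and -0.0309 over all genes. The 0 in Callus+AM against Callus became 7 without Callus+AM replicate 1, 4 without Callus+AM replicate 2, 2 without Callus replicate 2 and 1 without Ag replicate 2. The 0 in Ag against Callus+AM became 12 without Callus+AM replicate 1.

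In AgBi against Ag, 13 of the 148 members were higher and 8 lower in AgBi, which is 14.2%, where 25.3% of all genes were called (12.4% higher and 12.9% lower). LOC_Os04g02880 on chromosome 4 was lower in AgBi, at 13.39 and 12.03 FPKM against 590.9 and 163.3 in Ag (log2 fold change -4.94, SE 0.823, edgeR adjusted p = 0.00211). The groups did not overlap, and the log2 fold change was -3.74 without Ag replicate 1 and -5.58 without Ag replicate 2. LOC_Os03g38540 on chromosome 3 was higher in AgBi, at 126.1 and 291.2 FPKM against 12.65 and 6.533 in Ag (log2 fold change 4.41, SE 0.883, edgeR adjusted p = 0.00497), with a log2 fold change of 3.74 without AgBi replicate 2. These were the only 2 of the 21 calls that held whichever of the 18 libraries was left out.

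LOC_Os07g32710 on chromosome 7 was at 18.96 and 22.33 FPKM in AgBi against 1.34 and 0.7118 in Ag (log2 fold change 4.28, SE 1.29, with an edgeR adjusted p = 0.0322), and it was listed at 0 in both Seedling libraries. Its call ended without any 1 of the AgBi and Ag libraries (edgeR adjusted p 0.0665 to 0.153) and without a filter on low counts (0.106). LOC_Os10g36500 on chromosome 10 was at 9.764 and 21.1 FPKM in AgBi against 225.4 and 42.18 in Ag (log2 fold change -3.16, SE 0.842, edgeR adjusted p = 0.018). That call ended without AgBi replicate 1, AgBi replicate 2 or Ag replicate 1 (edgeR adjusted p 0.0603 to 0.213), and without a filter on low counts (0.0645). The log2 fold change of LOC_Os10g36500 was -3.79 without AgBi replicate 2, -1.51 without Ag replicate 1 and -3.90 without Ag replicate 2. The count of 21 was 7 without AgBi replicate 2, 8 without Ag replicate 1 and 11 without Ag replicate 2.

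In AMT+Ab against AMT+Hb, 4 members were lower and 0 higher (2.70% of those tested, where 6.42% of all genes were called, 3.16% higher and 3.26% lower). The clearest was LOC_Os01g74020 on chromosome 1. It stood at 1.376 and 2.45 FPKM in AMT+Ab against 130.2 and 89.47 in AMT+Hb (log2 fold change -5.86, SE 0.461, with an edgeR adjusted p = 4.58e-05), and the call held whichever library was left out. In the other regenerated groups it held 41.78 and 75.73 FPKM in Callus, 82.39 and 74.44 in Callus+AM, 117.0 and 94.13 in Ag, 126.9 and 98.82 in AgTi, 51.35 and 99.34 in AgBi and 27.43 and 18.77 in PB, against 0.1987 and 0.1836 in Seedling. AMT+Ab was thus its lowest group, between Seedling and every other regenerated library. LOC_Os04g02880 was at 5.879 and 28.04 FPKM in AMT+Ab against 263.5 and 302.5 in AMT+Hb (log2 fold change -4.09, SE 0.79, edgeR adjusted p = 0.0114). Its call ended without AMT+Ab replicate 1 (edgeR adjusted p = 0.0795, at a log2 fold change of -3.37) or AMT+Hb replicate 2 (edgeR adjusted p = 0.07), and its log2 fold change was -5.60 without AMT+Ab replicate 2.

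The other two genes lower in AMT+Ab are named because the count is small. LOC_Os01g53220 on chromosome 1 was at 13.83 and 38.23 FPKM in AMT+Ab against 157.2 and 130.7 in AMT+Hb (edgeR adjusted p = 0.0178). With AMT+Ab replicate 1 or either AMT+Hb library left out, the call was lost (edgeR adjusted p 0.0704 to 0.13). LOC_Os03g15920 on chromosome 3 was at 7.845 and 13.41 FPKM in AMT+Ab against 50.45 and 54.96 in AMT+Hb (edgeR adjusted p = 0.0398), and leaving out any 1 of 12 libraries, those of both groups included, ended it (edgeR adjusted p 0.0528 to 0.248), as did the replicate block (0.0525) and dropping the filter on low counts (0.0751). For LOC_Os01g53220 the log2 fold change of -2.49 was -3.39 without AMT+Ab replicate 2. The count of 4 was 1 without AMT+Ab replicate 1 and 2 without AMT+Hb replicate 2. It was 7 without either AgBi library and 10 without either Callus+AM library, which lie outside the comparison.

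PB was compared with the mean of AMT+Ab and AMT+Hb. Of the members, 7 were higher and 11 lower in PB (12.2%, where 33.3% of all genes were called, 17.4% higher and 15.8% lower), with a median log2 fold change of -0.299 against 0.0185 over all genes. LOC_Os03g38540 was again among the higher ones, at 125.0 and 82.86 FPKM in PB against 13.44 and 13.18 in AMT+Ab and 22.4 and 28.5 in AMT+Hb (log2 fold change 2.65, SE 0.641, edgeR adjusted p = 0.00866). Its call ended without PB replicate 1 (edgeR adjusted p = 0.0749). LOC_Os03g22510 on chromosome 3 was at 54.67 and 26.7 FPKM in PB against 1.042 and 9.078 in AMT+Ab and 3.13 and 1.319 in AMT+Hb (log2 fold change 3.55, SE 0.977, edgeR adjusted p = 0.0161). That call ended without PB replicate 1 (edgeR adjusted p = 0.107, at a log2 fold change of 2.94) or AMT+Hb replicate 2 (edgeR adjusted p = 0.0586). It also ended without a filter on low counts (edgeR adjusted p = 0.0553), and its log2 fold change was 4.66 without AMT+Ab replicate 2.

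LOC_Os05g28740, the most abundant member in the AMT groups, was lower in PB, at 404.9 and 283.9 FPKM against 4018 and 7712 in AMT+Ab and 2869 and 1666 in AMT+Hb (log2 fold change -3.46, SE 0.962, edgeR adjusted p = 0.0168). Its call ended without PB replicate 1 (edgeR adjusted p = 0.0916) or PB replicate 2 (edgeR adjusted p = 0.118). LOC_Os04g49757 on chromosome 4 was at 6.631 and 11.79 FPKM in PB against 38.72 and 83.22 in AMT+Ab and 124.3 and 28.2 in AMT+Hb (log2 fold change -2.94, SE 0.823, edgeR adjusted p = 0.0173). With either PB library or AMT+Hb replicate 1 left out, the call was lost (edgeR adjusted p 0.052 to 0.138), as it was without a filter on low counts (0.0565). The log2 fold change of LOC_Os04g49757 was -2.22 without AMT+Hb replicate 1. Only LOC_Os09g26620, at 105.1 and 106.3 FPKM in PB against 282.7 and 658.1 in AMT+Ab and 614.1 and 427.5 in AMT+Hb (log2 fold change -2.28, edgeR adjusted p = 0.00469), kept its call whichever library was left out. LOC_Os06g21410 had the largest fold among the calls for PB (log2 fold change 4.22, edgeR adjusted p = 0.0186) and rested on 1 library. It stood at 2.827 and 328.3 FPKM in PB against 5.459 and 7.084 in AMT+Ab and 9.547 and 13.33 in AMT+Hb, and its log2 fold change was -1.60 without PB replicate 2 and 5.21 without PB replicate 1. Its call ended without PB replicate 2 or any 1 of the AMT libraries (edgeR adjusted p 0.0573 to 0.402), without a filter on low counts (0.0591) and with limma (0.271). The count of 18 was 4 without PB replicate 1, 3 without PB replicate 2, 8 without AMT+Ab replicate 2, 9 without AMT+Hb replicate 1 and 30 without either Callus+AM library.

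AgBi against Ag and PB against the AMT groups share no library. Of the members, 9 were called in both, which is 42.9% of the 21 called for AgBi and 50% of the 18 called for PB, and all 9 had the same direction, 4 higher and 5 lower. Over all genes tested, 3721 were called in both, which is 55.7% and 42.4% of the lists, and 97.7% of them had the same direction. Nothing particular to the members is read from this overlap.

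The other 7 regenerated groups against Callus gave 1 higher and 3 lower members (2.70% of those tested, where 14.5% of all genes were called, 5.55% higher and 8.93% lower). Callus libraries were deeper than the other 14, so group and depth cannot be told apart here. LOC_Os08g13440 on chromosome 8 ranged from 1.95 to 96.62 FPKM with a median of 14.75 over the other 14 libraries, against 120.6 and 103.3 in Callus (log2 fold change -2.61, SE 0.6, edgeR adjusted p = 0.0156). Only Callus+AM replicate 2 came near the Callus level, and the call ended without either Callus library (edgeR adjusted p 0.0971 and 0.143). LOC_Os11g36810 on chromosome 11 ranged from 0.7773 to 29.85 FPKM over the other 14 libraries, against 35.63 and 41.14 in Callus (log2 fold change -2.44, SE 0.743, edgeR adjusted p = 0.0465). Both Callus libraries were above all others. The call ended without any 1 of 12 libraries, both Callus libraries included (edgeR adjusted p 0.0566 to 0.265). It also ended with the replicate block (edgeR adjusted p = 0.0615), without a filter on low counts (0.0967), with relative log expression factors (0.051) and with limma (0.058). This gene had a short implied length, at 0.0542 of the median used above, and 2 to 188 counts in regenerated plants.

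The remaining calls against Callus are named because the count is small. LOC_Os11g07440 on chromosome 11 was at 10.78 and 49.83 FPKM in Callus+AM, 43.53 and 46.97 in AgBi, 26.71 and 37.66 in PB, and 11.32 to 17.67 in Ag, AgTi, AMT+Ab and AMT+Hb, against 51.09 and 61.1 in Callus (log2 fold change -1.58, SE 0.314, edgeR adjusted p = 0.00844). No other regenerated library reached the Callus level, and the call ended without either Callus library (edgeR adjusted p 0.0779 and 0.106). LOC_Os11g42800 on chromosome 11 was the member higher outside Callus, at 3.03 to 38.85 FPKM in the other 14 libraries against 3.243 and 2.245 in Callus (log2 fold change 2.18, SE 0.629, edgeR adjusted p = 0.0382). Its lowest value outside Callus, in Ag replicate 2, lay between the Callus libraries, and leaving out any 1 of 11 libraries ended the call (edgeR adjusted p 0.0504 to 0.279). So did the replicate block (edgeR adjusted p = 0.0543) and dropping the filter on low counts (0.0952), and neither of these fits called any member higher outside Callus. The count of 4 was 2 without Callus replicate 2 and also 2 without Seedling replicate 1, Seedling replicate 2, AgTi replicate 2, AgBi replicate 2, AMT+Ab replicate 1, AMT+Hb replicate 2 or PB replicate 1, and it was 12 and 14 without Callus+AM replicates 1 and 2.

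**Figure D5:**
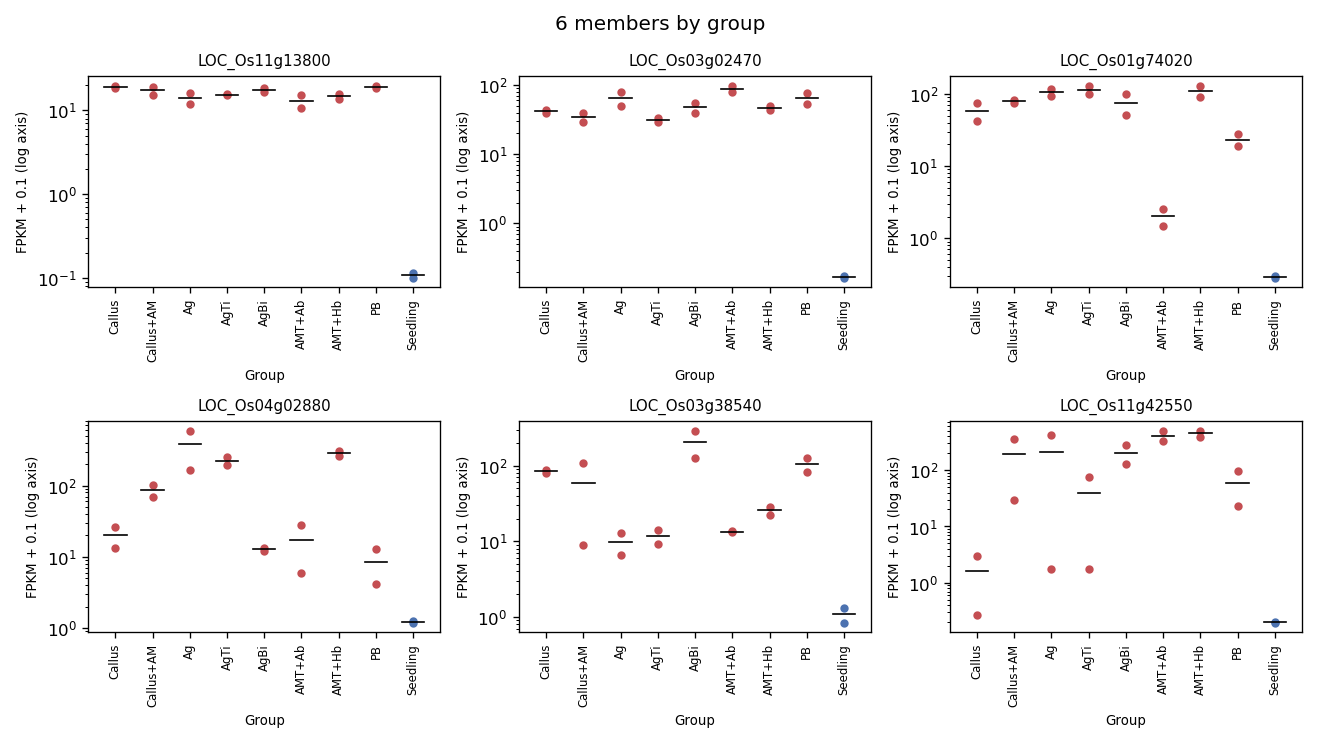
FPKM + 0.1 on a log axis in each library (points) with the group mean (line) for 6 members, regenerated groups in red and Seedling in blue at the right. LOC_Os11g13800 varies least among regenerated groups, LOC_Os03g02470 is highest in AMT+Ab, LOC_Os01g74020 is lowest in AMT+Ab, LOC_Os04g02880 and LOC_Os03g38540 differ between groups, and LOC_Os11g42550 is split within Ag.

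The members lay on all 12 chromosomes. In rice, these identifiers carry the chromosome and are numbered in order along it. Chromosome 1 held 20 members, chromosome 3 held 18, and chromosomes 4 and 6 held 14 each, while chromosome 12 held 5. Relative to the kept genes on each chromosome, the share that were members was highest on chromosomes 11 and 10 (1.41% and 1.40%) and lowest on chromosome 2 (0.436%). Chromosome 2 held 9 members, or 6% of them, and 12.1% of kept genes.

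Close neighbours among the members were counted by identifier. Within 5 places in the identifier order, 14 of the 150 had another member, in 7 pairs and no longer run. The next 150 genes of the ranking gave 10 such genes, and the 150 genes lowered most by the mirrored rule (Seedling mean of at least 1 FPKM, divided by the highest regenerated mean plus 0.1) gave 22. The number for 150 genes drawn at random was not computed, so the counts of neighbours are a description only. Directly adjacent were 6 members, in the pairs LOC_Os03g02460 and LOC_Os03g02470, LOC_Os06g15320 and LOC_Os06g15330, and LOC_Os09g38104 and LOC_Os09g38110.

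The top-ranked gene is in the first of these pairs. Its neighbour LOC_Os03g02460 was far lower, at 1.681 to 8.627 FPKM in regenerated plants against 0.2046 and 0.1375 in Seedling, and the correlation of the pair over the 16 regenerated libraries was 0.579 on the log2(FPKM + 0.1) scale. LOC_Os06g15330 on chromosome 6 ranged from 24.03 to 280.5 FPKM against 1.481 and 0.2514 in Seedling, while its neighbour LOC_Os06g15320 rests on 39 counts in all libraries together. LOC_Os09g38110 on chromosome 9 ranged from 5.956 to 53.72 FPKM against 0.444 and 0.1367 in Seedling. Its neighbour LOC_Os09g38104 had a very short implied length, at 0.0254 of the median used above. It was listed at 0 in both Seedling libraries and in Ag replicate 1. Whether reads of a pair were shared between overlapping or near-identical genes could not be seen in these tables.

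LOC_Os01g03340 and LOC_Os01g03390 on chromosome 1, 5 places apart, had the highest correlation of the 7 pairs, 0.882 over the 16 regenerated libraries. They stood at 3.361 and 2.575 FPKM in Callus+AM replicate 1 and at 139.9 and 163.9 in replicate 2, so the pair moved together between those libraries. In Seedling replicates 1 and 2, LOC_Os01g03340 held 1.702 and 0.025 FPKM and LOC_Os01g03390 held 0.9359 and 0.7366. LOC_Os03g14654 and LOC_Os03g14710, 4 places apart on chromosome 3, had a correlation of 0.473, and LOC_Os03g14710 kept within 1.158 to 6.626 FPKM where LOC_Os03g14654 spanned 0.9307 to 176.3. The correlations of the 7 pairs ran from 0.146 to 0.882, beside the median of 0.151 over all pairs of members.

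The genes directly beside a member were mostly not raised. Of 294 non-member neighbours, 114 were kept by the minimum, with a median ratio of 0.641, near the 0.591 over all kept genes. A ratio of at least 2 was found in 12 of the 114, or 10.5%, against 4.41% of all kept genes. These values come from the contrast used by the rule and are given as a description.

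By counts divided by FPKM, the members had a shorter implied length than other genes. It is given relative to the median over genes with many counts in every library. The median was 0.658 over the 148 members with at least 20 counts in a library, against 0.894 over 17082 kept genes. Under 0.5 were 33.8% of members against 19.5% of kept genes. The next 150 genes of the ranking had a median of 0.795, and the 150 genes lowered most had 0.654, so short implied length was not limited to the raised genes. In FPKM, 1 read weighs more for a short gene, and its part in the choice of members was not tested beyond the ranking by CPM given in the closing section.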

How the data were processed

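The authors deposited estimated counts and FPKM per gene for 18 RNA-seq libraries, 2 in each of 9 groups. Per the submitters' processing notes, TopHat, Cuffnorm and Cuffdiff were used, with no version given. No source used here states the genome build, the annotation release or whether counting used strand, so reads of overlapping or near-identical genes cannot be separated. The 18 bisulfite samples are not analysed here. Per the labels, RNA came from a column kit or Trizol, without saying which library had which, so no batch could be formed. Counts were rounded, since 0.707% of the deposited values were fractional.

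Members were ranked on the deposited FPKM with a pseudocount of 0.1. The members, lists and rules were chosen with earlier results of these data known. Counts were fitted with edgeR 4.0.16 in R 4.3.3 (filterByExpr, TMM, robust quasi-likelihood, all 18 libraries, 9 residual degrees of freedom, common dispersion 0.146), with Benjamini-Hochberg adjustment over 26374 genes and calls at 0.05. SEs were derived from F. The test was tried on simulated data. Alternatives used relative log expression factors, no filter, DESeq2 1.42.0, limma 3.58.1 on log2(FPKM + 1), a replicate block and leaving out each library. A group left with 1 library is assumed to vary like the others.

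Identifiers were named by rule: the 5 highest ratios, the 5 highest floors, 3 on each side of rank 150, up to 2 higher and 2 lower non-overlapping calls per comparison, the 5 leading neighbour pairs, and the 3 smallest and largest spreads. Others were named after their values were seen: LOC_Os09g15365, LOC_Os01g53220, LOC_Os03g15920, LOC_Os11g07440, LOC_Os11g42800 and LOC_Os06g21410. The libraries of each group differed beyond counting noise and were counted separately. The joint test was added after seeing the data.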

Additional observations from a re-analysis of the deposited data

Results flagged for a closer look

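Members whose level against Seedling differed between regenerated groups, by a direct edgeR test of the difference, are given as log2 fold changes. They are the named ones, at most 2 higher and 2 lower per comparison without overlap between libraries, of 21, 4, 18 and 4 members called in the 4 comparisons below. In AgBi against Ag these were LOC_Os03g38540 (4.41), LOC_Os07g32710 (4.28), LOC_Os04g02880 (-4.94) and LOC_Os10g36500 (-3.16). In AMT+Ab against AMT+Hb they were LOC_Os01g74020 (-5.86) and LOC_Os04g02880 (-4.09). In PB against the AMT groups they were LOC_Os03g22510 (3.55), LOC_Os03g38540 (2.65), LOC_Os05g28740 (-3.46) and LOC_Os04g49757 (-2.94). In the other 7 regenerated groups against Callus they were LOC_Os08g13440 (-2.61) and LOC_Os11g36810 (-2.44).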

How the results depend on the processing

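Of the 150 members, 83 stayed among the top 150 with a pseudocount of 1 FPKM, 97 when the lowest single library replaced the lowest group mean, and 88 and 95 with the replicate 1 or replicate 2 libraries alone. With a pseudocount of 0.01, a minimum of 0.5 or 2 FPKM, or TMM-scaled CPM, 141, 135, 116 and 128 stayed, and 119 to 149 when 1 library was left out. The 142 members above Seedling in all libraries were also 142 by CPM. The 117 called in all 8 groups were 78 with limma, 83 without a filter, 109 with the replicate block and 137 with DESeq2, and 52 to 118 when 1 library was left out. Without a filter, AgBi against Ag gave 12 members, PB against the AMT groups 11 and the 7 groups against Callus 2. Over all genes, that fit called 5212, 7640 and 3063 in these comparisons. With DESeq2, Callus+AM against Callus gave 8, Ag against Callus+AM 1, AMT+Ab against AMT+Hb 12, PB against the AMT groups 29 and the 7 groups against Callus 13. Over all genes, DESeq2 called 2682, 266, 2955, 9681 and 5961, where the main edgeR fit called 209, 0, 1692, 8778 and 3819. With limma, Callus+AM against Callus gave 1 and AMT+Ab against AMT+Hb 7, where 242 and 1828 of all genes were called. The causes were not tested. Leaving out 1 library gave 0 to 7 members in Callus+AM against Callus, 0 to 12 in Ag against Callus+AM, 0 to 0 in AgTi against Ag, 7 to 30 in AgBi against Ag, 1 to 10 in AMT+Ab against AMT+Hb, 3 to 30 in PB against the AMT groups and 2 to 14 in the 7 groups against Callus. Neighbouring members were 6 within 1 place, 6 within 2, 19 within 10, and 16 when only identifiers with a count were placed in order. With at least 100 counts, a minimum chosen after seeing the data, the median relative length was 0.666.

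Labels give the groups the same replicate numbers, but only 9 of 36 pairs of groups had deviations correlated above 0.1 (-0.522 to 0.349), so the numbers were not taken as pairs. With the replicate block, the 7 groups against Callus gave 2 members, and the other comparisons stayed within 1.5 times. The 12 named tests were chosen for no overlap between libraries, so a reversal among them was hardly possible. LOC_Os06g21410, which is not among them, reversed without PB replicate 2. Many of the alternatives left out a library outside the comparison. Of 276 alternative results for the 12 named tests, 237 kept the call, 39 lost it and 0 reversed.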
